A study of Homo sapiens with 12 samples.

Results

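The RAS regulators examined here are 10 genes whose products set how much of the RAS GTPases is in the active, GTP-bound state or how that state is passed on. They are the exchange factors SOS1 and SOS2, the GTPase activators NF1, RASA1, RASA2, RASA3, RASAL2 and DAB2IP, and a pair of other regulators, LZTR1 and SHOC2, which are neither. The rule takes them by gene symbol alone, although earlier results of these data were known when the list was made, and each was found once among the 60603 genes of the deposited table. All 10 passed the filter on low counts, which left 17775 genes to test. The smallest count of a member was 122, for RASA2 in a treated NS1 library, and the largest was 2448, for NF1 in an untreated WT library.

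RAS proteins switch between a GDP-bound off state and a GTP-bound on state. Exchange factors such as SOS1 and SOS2 are brought to the membrane by the adaptor GRB2 after growth factor receptors are activated, and there they load RAS with GTP. GTPase activators speed the hydrolysis of that GTP and turn RAS off; neurofibromin, the product of NF1, is the best known of them as a tumour suppressor. RASA2 and RASA3 belong to the GAP1 family of activators, and RASAL2 and DAB2IP to the SYNGAP family. LZTR1 is a substrate adaptor of a CUL3 ubiquitin ligase that marks RAS-family proteins such as RIT1 for degradation. SHOC2 is the scaffold that joins MRAS to the catalytic subunit of protein phosphatase 1, a complex that removes an inhibitory phosphate from RAF kinases downstream of RAS.

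The study measured poly(A) RNA from T24, an established human bladder carcinoma line, in 12 libraries. The labels give 4 groups of 3: WT cells with no treatment, WT cells with 5-Ad-IAA, NS1 cells with no treatment and NS1 cells with 5-Ad-IAA. All groups are of the T24 background. 5-Ad-IAA is an auxin derivative used to switch on auxin-inducible degradation, and the series' design text names AlissAID, a form of that system that reaches untagged proteins through a binding protein. The labels do not spell out NS1; it is also the name of a synthetic binder of RAS proteins, but whether the construct in these cells is that binder is not stated. Whether the NS1 line is 1 clone, which ligase components the WT cells carry, and how long and at what dose the inducer was given are not stated in the labels. Below, untreated and treated refer to the inducer, and the lines are called WT and NS1.

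Nothing in the labels says that the 3 replicates of a group came from separate cultures, so the p-values measure the spread between these libraries, which may be technical. Library totals ran from 10593934 to 20266996 counts. Keratins of simple epithelium were abundant in all libraries, with KRT7 between 1530 and 6020 normalised CPM (read counts scaled to a common library size), whereas CDH1 did not exceed 0.0966, UPK1B did not exceed 0.0966 and UPK3A was at 0. The 6 epithelial markers summed to 4320 to 5950 normalised CPM in the WT libraries and to 4020 to 11000 in the NS1 libraries. Keratins dominate that sum, and the listed markers did not move together. Between the untreated lines EPCAM was lower in NS1 (log2 fold change -1.76, SE 0.41, edgeR adjusted p = 0.0155), with groups apart. KRT19 was higher there (0.78, SE 0.21, adjusted p = 0.0312), with groups that overlapped, and the other 3 tested were not called. Between the treated lines 2 were called higher in NS1 and 0 lower. The urothelial list (GATA3, PPARG and 3 uroplakins) summed to 63.4 to 128 in WT, 97.5 to 114 in untreated NS1 and 148 to 213 in treated NS1, and VIM, the only mesenchymal marker listed, ran from 54.0 to 87.7 in WT and from 23.5 to 33.3 in NS1. Leukocyte markers summed to 1.04 to 2.71 in WT, 0.432 to 0.872 in untreated NS1 and 1.09 to 1.83 in treated NS1. Endothelial markers summed to 0.720 to 3.37 in WT, 0.0617 to 1.06 in untreated NS1 and 1.35 to 4.07 in treated NS1. Within NS1 the inducer was also followed by higher GATA3 (log2 fold change 1.34, SE 0.32, adjusted p = 0.0282) and by higher PECAM1, an endothelial marker (0.0617, 0.363 and 0.192 normalised CPM in untreated and 1.14, 1.83 and 2.82 in treated NS1, 0.450 to 2.20 in WT; log2 fold change 3.19, SE 0.75, adjusted p = 0.0251). The other 2 endothelial markers did not pass the count filter. CDH5 had a mean of 0.0883 normalised CPM in untreated and 0.114 in treated NS1, below the WT means (0.702 untreated, 0.405 treated). VWF had 0.418 and 0.633 in untreated and treated NS1, higher in 3 of 3 replicate numbers with groups that overlapped. Its WT means were lower (0.14 untreated, 0.046 treated). Markers differed between the same groups as the line differences and the inducer effects given below, and their part in those was not tested. In RNA from whole cultures, fewer cells of a kind and less RNA per cell cannot be told apart.

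Promoter sequence was available for 9 of the 10 members, RASA2 being the exception, in a RefSeq table on GRCh38.p14 of windows from 250 bases before to 50 after an annotated start. Those of SOS1, SOS2 and SHOC2 are printed because these 3 genes were the members that differed between the treated lines. Each is written 5′ to 3′ on the gene's own strand, with capitals marking the GC box GGGCGG, the site recognised by SP-family factors, on either strand (as CCGCCC on the other).
SOS1, upstream start, minus strand, chr2:39124819-39125118: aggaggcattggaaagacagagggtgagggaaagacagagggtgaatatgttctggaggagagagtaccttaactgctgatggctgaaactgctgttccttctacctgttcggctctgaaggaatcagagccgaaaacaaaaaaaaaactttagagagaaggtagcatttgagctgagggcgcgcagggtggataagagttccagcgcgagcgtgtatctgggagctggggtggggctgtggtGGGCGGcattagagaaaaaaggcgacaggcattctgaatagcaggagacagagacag
SOS1, downstream start, minus strand, chr2:39121002-39121301: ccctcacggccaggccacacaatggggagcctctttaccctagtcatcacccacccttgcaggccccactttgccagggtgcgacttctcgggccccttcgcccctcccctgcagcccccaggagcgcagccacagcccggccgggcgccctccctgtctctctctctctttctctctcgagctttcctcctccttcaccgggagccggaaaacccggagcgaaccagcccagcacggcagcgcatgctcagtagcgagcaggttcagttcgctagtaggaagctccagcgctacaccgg
SOS2, minus strand, chr14:50231529-50231828: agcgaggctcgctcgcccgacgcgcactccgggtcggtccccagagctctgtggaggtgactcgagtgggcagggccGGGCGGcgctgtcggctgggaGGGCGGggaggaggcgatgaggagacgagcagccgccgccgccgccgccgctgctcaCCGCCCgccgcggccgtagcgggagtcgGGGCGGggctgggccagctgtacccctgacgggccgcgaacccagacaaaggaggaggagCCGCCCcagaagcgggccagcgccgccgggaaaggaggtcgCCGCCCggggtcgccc
SHOC2, plus strand, chr10:110919120-110919419: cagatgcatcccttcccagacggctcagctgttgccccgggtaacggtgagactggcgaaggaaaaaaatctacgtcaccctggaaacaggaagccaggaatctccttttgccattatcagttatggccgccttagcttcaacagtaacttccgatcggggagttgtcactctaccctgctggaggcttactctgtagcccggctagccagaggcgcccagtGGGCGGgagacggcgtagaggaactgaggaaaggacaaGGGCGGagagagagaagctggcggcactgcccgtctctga

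The SOS2 window holds 6 GC boxes, 42 CpG dinucleotides and 77.3% G and C, against 2 GC boxes, 16 CpG and 57.3% in SHOC2. The upstream SOS1 window holds 1 GC box, 9 CpG and 51.0% G and C, and the downstream one holds none, with 19 CpG and 65.7%. Over the 35116 windows of the table the medians were 14.0 CpG and 58.7%. Which SOS1 start T24 cells use cannot be read from counts per gene. For the count over members, the 1 window nearest to the gene's GENCODE start was taken. It held a GC box in 7 of the 9 members, against 45.0% of all windows; of the other 2, DAB2IP has one in another of its windows and NF1 has none. The ETS motif CCGGAAG was found in 1 of the 9 members, NF1, and in 10.3% of all windows, and the AP-1 motif TGANTCA in 0 of the 9 and in 7.71% of all windows; both were searched on both strands, and no motif searched is contained in another. ETS and AP-1 factors act downstream of RAS and ERK, which is why those motifs were searched.

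The 10 genes lie on 10 different chromosomes. In GENCODE release 29 on GRCh38, SOS1 is at chr2:38981396-39124345 on the minus strand, SOS2 at chr14:50117120-50231558 on the minus strand, and SHOC2 at chr10:110919547-111013667 on the plus strand. RASA1 is at chr5:87267888-87391931, RASA2 at chr3:141487047-141615342, NF1 at chr17:31094927-31382116, RASAL2 at chr1:178094141-178484147, DAB2IP at chr9:121567057-121785530 and LZTR1 at chr22:20982013-20999038, all on the plus strand. RASA3 is at chr13:113977783-114132611 on the minus strand. For SOS2, RASA3 and LZTR1 the deposited identifier has another version than this release, so their model may have differed in the authors' counting. Some reads could belong to a neighbour. Exons of RASA1 share 771 bases (14.7% of its exon length) with CCNH on the opposite strand, and exons of LZTR1 share 3096 bases (34.7%) with the transcript AC002470.2 on the same strand. The use of strand in counting is not given in the sources used here, and an overlap on the same strand cannot be resolved by it, so values of RASA1 and LZTR1 are uncertain to that extent. Overlaps were 3.51% of the exon length for RASAL2 and at most 0.56% per neighbour for NF1.

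Levels were divided by the joint length of all annotated exons of a gene, and on that scale the members differed. That length joins 23 annotated transcripts each for NF1 and LZTR1 and 2 for RASA3. Which of them T24 cells express was not tested, so the order of the genes depends in part on the annotation. RASA3, an activator that acts at the plasma membrane, was highest in untreated WT cells at 13.4 ± 2.19 normalised CPM per kilobase of exon (SD, n = 3), and RASAL2 was lowest at 1.47 ± 0.317. SHOC2 (8.83 ± 0.616) and RASA1 (6.93 ± 0.823) followed RASA3, then DAB2IP (6.09 ± 0.481) and LZTR1 (5.80 ± 0.621). The exchange factor SOS1 stood at 4.47 ± 0.784 and SOS2 at 2.62 ± 0.584, with NF1 between them at 4.10 ± 1.09 and RASA2 at 2.25 ± 0.376. In that group the ranges of RASA1, DAB2IP and LZTR1 overlapped each other. Those of SOS1 and NF1, NF1 and SOS2, and SOS2 and RASA2 overlapped too, so the order within all those pairs did not exceed the spread between libraries. RASAL2 ranked last in all 4 groups and RASA2 next to last, although their ranges overlapped in treated NS1. RASA3 ranked first in all groups but treated NS1, where SHOC2 had the higher mean (12.1 ± 1.17 against 11.2 ± 0.549 per kilobase) and the ranges of the pair overlapped. NF1, with 27.13 kb of annotated exon, had the highest CPM before division by length.

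The first comparison asked how the treated NS1 cells differed from treated WT cells. Both exchange factors and the RAF-activating scaffold SHOC2 were higher in NS1, by 1.43 to 1.67-fold, and no member was called lower. Of the 10 members, 3 were called, which means that the edgeR quasi-likelihood test gave an adjusted p (Benjamini-Hochberg, over the 17775 genes tested) below 0.05, where 28.2% of all genes tested were called, so the number of members called is near the share of all genes. The same 3 were the members whose groups did not overlap, against 43.4% of all genes.

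SOS2 had 15.9, 19.4 and 19.1 normalised CPM in the treated WT libraries (replicates 1 to 3) and 32.3, 29.3 and 28.8 in the treated NS1 libraries. All 3 NS1 libraries were above all 3 WT libraries, and also above the untreated libraries of both lines. The difference was 1.67-fold (log2 fold change 0.74, SE 0.15, adjusted p = 0.00303). SOS2 kept its call in all 6 fits made without 1 of the treated libraries, with adjusted p up to 0.0145, and in each fit without 1 replicate number, up to 0.0396.

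SHOC2 had 37.8, 37.2 and 37.0 normalised CPM in treated WT cells, with the smallest spread of the 10 members there, and 59.3, 49.0 and 53.1 in treated NS1 cells. The groups were apart, and the difference was 1.44-fold (log2 fold change 0.53, SE 0.13, adjusted p = 0.0100). The call held in the 6 fits without 1 treated library. It was lost without replicate 2 of all groups (adjusted p = 0.071) and without replicate 3 (adjusted p = 0.097), where the log2 fold changes were 0.594 and 0.538.

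SOS1, the exchange factor with the higher level of the pair, had 39.0, 35.9 and 39.9 normalised CPM in treated WT cells and 59.9, 59.7 and 43.9 in treated NS1 cells. Replicate 3 of treated NS1 lay closest to WT, and the groups did not overlap. The difference was 1.43-fold (log2 fold change 0.51, SE 0.15, adjusted p = 0.0212). This call rested on single libraries: adjusted p was 0.0704 without treated NS1 replicate 1, 0.0813 without treated NS1 replicate 2 and 0.0793 without treated WT replicate 2. Without replicate 1 of all groups it was 0.0618 and without replicate 2 it was 0.25, and with libraries scaled by their totals alone it was 0.0708.

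None of the 6 GTPase activators was called in this comparison. NF1 (log2 fold change 0.03, interval of 2 SE -0.32 to 0.38), RASAL2 (0.00, -0.34 to 0.34) and DAB2IP (0.10, -0.12 to 0.33) had estimates near 0 and intervals that span it. Over all 12 libraries NF1 ran from 79.9 to 138.9 normalised CPM, RASAL2 from 17.8 to 26.6 and DAB2IP from 48.2 to 63.8. RASA1, which binds phosphorylated receptors through SH2 domains, had 30.3, 37.8 and 42.0 normalised CPM in treated WT and 55.9, 44.2 and 40.4 in treated NS1, groups that overlapped (log2 fold change 0.36, SE 0.17, adjusted p = 0.143). RASA3 was on the other side of 0 (log2 fold change -0.25, SE 0.15, adjusted p = 0.232), as were RASA2 (-0.15, adjusted p = 0.558) and LZTR1 (-0.18, adjusted p = 0.272). RASA3 was called, as lower in NS1, without treated WT replicate 1 (log2 fold change -0.412, adjusted p = 0.0364). The median log2 fold change of the 10 members was 0.0671, and that of all genes tested was -0.00364.

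**Figure D1:**
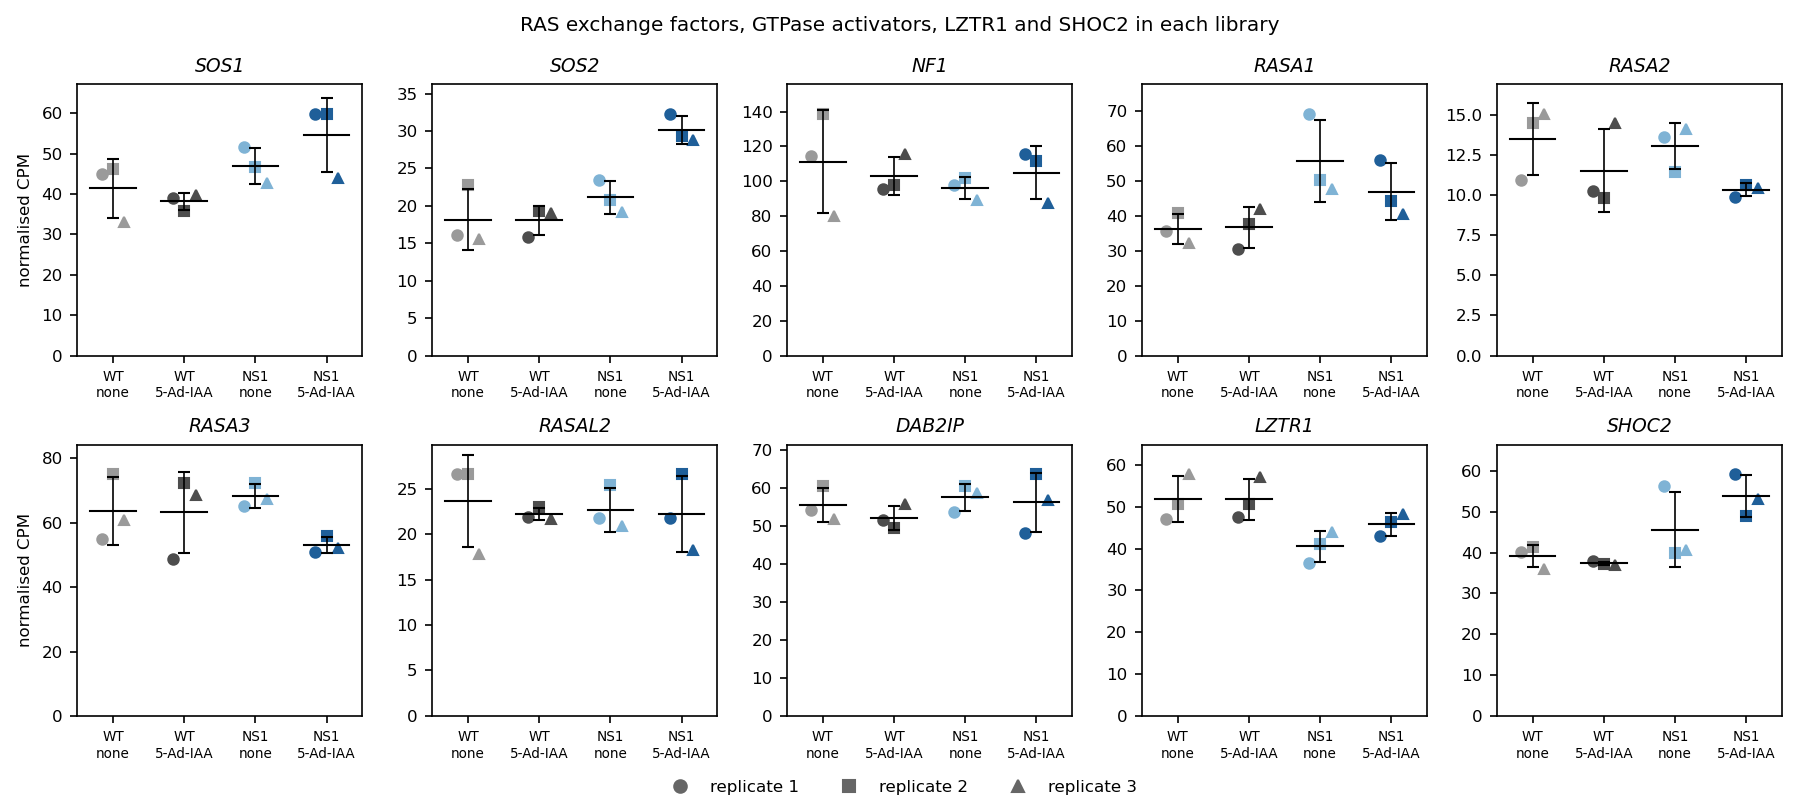
Normalised CPM of each member in each of the 12 libraries, one panel per gene with its own axis from 0, points marked by replicate number, a line for the group mean and bars of 1 SD. In treated NS1 cells SOS2 sits between 28.8 and 32.3, above all other libraries, while RASAL2 and DAB2IP overlap across the 4 groups.

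Without inducer, the lines were compared to see which of these differences were present before treatment. RASA1 was the 1 member of 10 called, and it was higher in NS1; 12.5% of all genes were called, a share near that of the members. RASA1 had 35.7, 40.8 and 32.3 normalised CPM in untreated WT and 69.2, 50.1 and 47.6 in untreated NS1, with replicate 1 of NS1 the highest and the groups apart. The difference was 1.53-fold (log2 fold change 0.62, SE 0.17, adjusted p = 0.0348). It was not called without untreated WT replicate 1 (adjusted p = 0.0812) or 3 (0.113), without untreated NS1 replicate 1 (0.142) or 2 (0.0562), without replicate 2 (0.154) or 3 (0.176) of all groups, or with library totals as scale (0.0563).

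LZTR1, the ligase adaptor, had 47.0, 50.7 and 57.9 normalised CPM in untreated WT and 36.7, 41.2 and 44.0 in untreated NS1. Every NS1 library was below every WT library, yet the difference missed the threshold (log2 fold change -0.35, SE 0.11, adjusted p = 0.0622), and it passed with library totals as scale (adjusted p = 0.0264) and without replicate 1 of all groups (0.0472). RASA1 and LZTR1 were the 2 of 10 members whose untreated groups did not overlap, against 31.0% of all genes. SOS1, SOS2 and SHOC2 were not called between the untreated lines, with log2 fold changes of 0.18 (interval of 2 SE -0.12 to 0.48), 0.22 (-0.08 to 0.53) and 0.22 (-0.04 to 0.49). Each of these intervals spans 0, and each overlaps the interval of the treated difference of the same gene (0.21 to 0.81, 0.44 to 1.05 and 0.26 to 0.79). The other activators had log2 fold changes from -0.21 (NF1) to 0.10 (RASA3), and each of their intervals spans 0.

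The inducer effect within NS1 cells was the comparison of the induced system with its own untreated state. None of the 10 members was called in the fit without a block, where 6.15% of all genes were called. At an unadjusted p under 0.05, 2 members passed (SOS2 and RASA3), and DESeq2 called 1 (SOS2, adjusted p = 0.0332). The labels number the replicates 1 to 3 in each group and do not say that the numbers pair libraries. Libraries with the same number deviated together within a line, most of all replicate 1, but different numbers were not compared. The effect was also fitted with the replicate as a block, as an alternative. A block by number called 2 members (13.6% of all genes), and a block by number within each line called 3 (25.9% of all genes), shares near those of all genes.

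SOS2 had 23.5, 20.8 and 19.1 normalised CPM in untreated NS1 cells and 32.3, 29.3 and 28.8 in treated NS1 cells. Treated libraries were higher within each replicate number and the groups were apart, with a difference of 1.43-fold (log2 fold change 0.51, SE 0.15, adjusted p = 0.0632). SOS2 rose in the blocked fits, with adjusted p = 0.0321 with a block by number and 0.00116 with a block within each line. Without a block, it was called in 0 of the 6 fits that left out 1 NS1 library (adjusted p 0.0822 to 0.204). Its adjusted p was 0.0444 without replicate 1 of all groups, 0.308 without replicate 2 and 0.422 without replicate 3. The blocked fits were not repeated with libraries left out.

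RASA3 had 65.2, 72.5 and 67.4 normalised CPM in untreated NS1 cells and 51.0, 56.0 and 52.3 in treated NS1 cells, lower within each number and with the groups apart. Without a block it was not called (log2 fold change -0.36, SE 0.15, adjusted p = 0.175), and it fell in the blocked fits (adjusted p = 0.0387 by number and 0.00294 within each line). SHOC2 had 56.2, 39.8 and 40.7 in untreated and 59.3, 49.0 and 53.1 in treated NS1 cells, groups that overlapped because untreated replicate 1 lay within the range of the treated libraries. SHOC2 was higher in 3 of 3 numbers (log2 fold change 0.24, SE 0.13, adjusted p = 0.343) and was called only with the block within each line (adjusted p = 0.0360).

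Among the remaining members, RASA2 had 13.6, 11.4 and 14.1 normalised CPM in untreated and 9.88, 10.6 and 10.5 in treated NS1 cells, groups that did not overlap, and it was not called (log2 fold change -0.34, SE 0.17, adjusted p = 0.297; 0.0564 with the block within each line). SOS2, RASA2 and RASA3 were thus the 3 of 10 members with groups apart, against 27.2% of all genes. SOS1 (0.21) and LZTR1 (0.17) were higher and RASA1 (-0.25) was lower within all 3 numbers, with adjusted p of 0.466, 0.436 and 0.470. NF1 (0.13), RASAL2 (-0.03) and DAB2IP (-0.04) did not keep one direction over the 3 numbers. The members' median log2 fold change was 0.0472, with 5 above 0 and 5 below, and the median of all genes was 0.00555.

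In WT cells given the same compound, no member was called, and 0% of all genes were. Without adjustment, 0 members and 94 of 17775 genes had p under 0.05, and DESeq2 called no member. The log2 fold changes of the members ran from -0.23 (RASA2) to 0.01 (RASA1), each with an adjusted p of 1 in edgeR. No member had groups that did not overlap, against 3.41% of all genes. SOS2, for example, had 16.1, 22.8 and 15.6 normalised CPM in untreated and 15.9, 19.4 and 19.1 in treated WT cells, and the interval of 2 SE of its log2 fold change was -0.32 to 0.30.

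Whether the inducer effect differed between the lines was tested by the interaction. It called 0 of 10 members in the fit without a block, where 0.0225% of all genes were called, and 1 member, SOS2, passed an unadjusted p of 0.05 there and with DESeq2. The difference of the SOS2 effects was 0.52 on the log2 scale (SE 0.22, adjusted p = 0.342). With the block within each line, SOS2 was the 1 member called (log2 0.52, adjusted p = 0.0223), where 14.0% of all genes were called, and RASA3 lay just outside (-0.34, adjusted p = 0.0505). For SHOC2 the difference was 0.30 (interval of 2 SE -0.07 to 0.68) and for SOS1 0.33 (-0.09 to 0.75), so neither was shown to respond otherwise in NS1 than in WT. Comparisons that share a group are not independent of each other: the treated NS1 libraries enter the line difference, the inducer effect and the interaction alike.

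**Figure D2:**
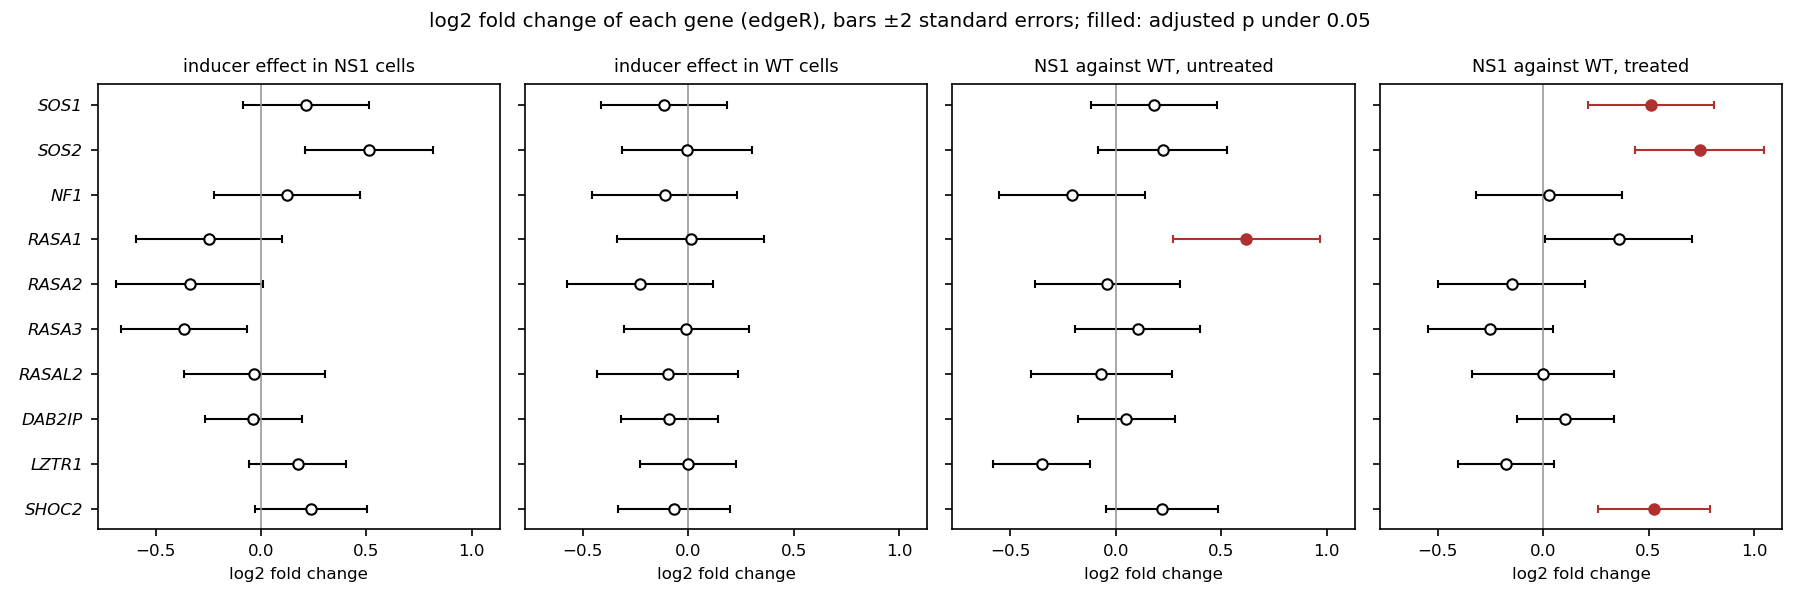
log2 fold change of each member from edgeR in 4 comparisons, one panel each, with bars of 2 standard errors and filled points for adjusted p under 0.05. SOS1, SOS2 and SHOC2 are filled between the treated lines (0.51, 0.74 and 0.53) and RASA1 between the untreated lines (0.62), and in this fit without a block no point is filled for the inducer in either line.

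Summed over the genes, the exchange factors SOS1 and SOS2 together reached 84.7 ± 10.5 normalised CPM in treated NS1 cells (SD, n = 3), against 68.1 ± 6.67 in untreated NS1, 56.4 ± 2.26 in treated WT and 59.6 ± 10.3 in untreated WT. The lowest treated NS1 library (72.7) was above the highest treated WT library (59.0) and below the highest untreated NS1 library (75.1). The 6 activators together gave 293.7 ± 24.6 in treated NS1, 313.6 ± 13.7 in untreated NS1, 288.9 ± 30 in treated WT and 303.9 ± 49.6 in untreated WT, and their ranges overlapped. These sums are dominated by the genes with most counts and were not tested.

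The makeup of the SOS pair was also described, as SOS1's share of the counts of both genes. It was 68.8%, 69.2% and 69.0% in untreated NS1 and 65.0%, 67.1% and 60.4% in treated NS1, so the treated libraries were lower within each number. The exact (Clopper-Pearson) 95% interval of the lowest, treated NS1 replicate 3, was 57.1% to 63.6%, which covers counting error only. In WT cells the share was 73.7%, 67.0% and 68.0% in untreated and 71.1%, 65.0% and 67.6% in treated libraries, also lower within each number, with groups that overlapped. The share uses counts and not lengths, and it is no comparison of the transcript numbers of the genes.

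A wider list of 25 partners and relatives of the members was examined for context; 20 passed the count filter, and RASGRP2, RASGRP3, RASGRP4, RASAL1 and RASAL3 did not. In treated cells, 6 of the 20 were higher and 3 lower in NS1 than in WT, where 28.2% of all genes were called. Without inducer, 2 were higher in NS1 (MRAS and SPRED2), where 12.5% of all genes were called. The inducer in NS1 cells raised 2 in the fit without a block (RASGRP1 and MRAS; 6.15% of all genes). With the block within each line 5 rose and 2 fell (25.9% of all genes called), and the inducer in WT cells changed none of the 20 (each adjusted p = 1, 0 at an unadjusted p under 0.05).

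RASGRP1, an exchange factor that responds to diacylglycerol and is best known in lymphocytes, had at most 0.223 normalised CPM in a WT library. It had 0.185, 1.38 and 0.577 in untreated NS1 and 2.55, 11.2 and 8.80 in treated NS1 cells, all 3 treated values above all others. It rose with the inducer in NS1 (log2 fold change 3.38, SE 0.64, adjusted p = 0.00975). Each treated WT library held at most 3 counts of it. The treated NS1 mean, 7.51 ± 4.46 normalised CPM (SD, n = 3), was 35.5-fold the level of 3 counts per WT library (adjusted p = 0.000257 between the treated lines). That is a lower bound for the group means and not for each library. RASGRP1 passed the count filter through the treated NS1 libraries (49 to 128 counts), the group in which it is high, while untreated NS1 libraries held 3 to 19. With at least 10 counts asked of every library, RASGRP1 and MRAS were not tested, and 0 wider regulators were called for the inducer in NS1. Of the leukocyte markers, PTPRC did not exceed 0.0873 normalised CPM and CD3E did not exceed 0.0751 in any library. CD14 had 0.432, 0.872 and 0.866 in untreated and 1.09, 1.75 and 1.25 in treated NS1, higher in 3 of 3 numbers with groups apart and not called (log2 fold change 0.92, SE 0.44, adjusted p = 0.256), and it reached 2.71 in a WT library. The part of such cells in the level of RASGRP1 was not tested. The call for the inducer was lost without replicate 2 of all groups (adjusted p = 0.182) and without replicate 3 (0.275), fits in which 0 of all genes were called.

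MRAS, the small GTPase that SHOC2 binds, had 1.17, 0.976 and 0.677 normalised CPM in untreated WT, 0.950, 1.48 and 0.720 in treated WT, 4.69, 2.04 and 3.27 in untreated NS1 and 10.4, 6.11 and 6.89 in treated NS1. The lines did not overlap, and within NS1 the treated libraries were above the untreated ones. MRAS was higher in NS1 without inducer (log2 fold change 1.77, SE 0.37, adjusted p = 0.00823) and with it (log2 fold change 2.89, SE 0.35, adjusted p = 9.35e-05), and it rose with the inducer in NS1 (log2 fold change 1.23, SE 0.31, adjusted p = 0.0334). That last call was lost without any 1 of 4 libraries, namely treated NS1 replicate 1 (adjusted p = 0.0968) or 3 (0.0749) and untreated NS1 replicate 2 (0.12) or 3 (0.106). Like that of RASGRP1, it was also lost without replicate 2 (0.237) or 3 (0.308) of all groups. The call of MRAS between the untreated lines was lost without replicate 3 of all groups (adjusted p = 0.15). The 3 catalytic subunits of the phosphatase did not move one way between the treated lines: PPP1CB was higher in NS1 (0.63, adjusted p = 0.00638), PPP1CA was lower (-0.45, adjusted p = 0.0156), and PPP1CC was not called (-0.18, adjusted p = 0.188), with groups apart.

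Of the 5 listed adaptors between receptors and SOS, 2 were called higher and 1 lower in NS1 between the treated lines, and 2 were not called. In 3 of the 5 every NS1 library was above every WT library, and in 1 every NS1 library was below. Groups were apart for 43.4% of all genes. FRS2, the docking protein of FGF receptors, was higher in NS1 (18.8, 16.4 and 14.7 in treated WT against 24.3, 31.9 and 26.7 in treated NS1; log2 fold change 0.72, SE 0.17, adjusted p = 0.00594). SHC1 was higher (log2 fold change 0.41, SE 0.09, adjusted p = 0.00368). GRB2, which carries SOS to receptors, was lower (105, 118 and 124 against 88.3, 87.3 and 80.0; log2 fold change -0.44, SE 0.10, adjusted p = 0.00510). These 3 pairs of groups did not overlap, and the calls of GRB2, SHC1 and FRS2 held in each fit without 1 treated library. Without replicate 2 of all groups they were lost (adjusted p = 0.0985, 0.103 and 0.125), as was that of PPP1CB (0.0658). Those of MRAS and RASGRP1 held there. Without replicate 3 of all groups the calls of GRB2 (0.146) and SHC1 (0.0637) were lost, and those of FRS2 and PPP1CB held.

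SPRED2, one of the proteins that bring neurofibromin to the membrane, was higher in untreated NS1 than in untreated WT (52.1 ± 5.41 against 35.1 ± 7.97 normalised CPM, with the SD over 3 libraries; log2 fold change 0.57, SE 0.16, adjusted p = 0.0349). It was called in only 1 of the 6 fits without 1 untreated library, the one without untreated WT replicate 2, and adjusted p reached 0.119 in the others. Another 3 regulators were called between the treated lines and are named after their values were seen: the LZTR1 substrate RIT1 was higher (0.69, adjusted p = 0.0114), and the phosphatase subunit PPP1CA, given above, and the exchange factor RASGRF2 (-0.75, adjusted p = 0.0200) were lower. Each of these 3 calls was lost in at least 1 fit without 1 replicate number. That of RIT1 was lost without replicate 3 (adjusted p = 0.141), and that of PPP1CA without replicate 2 (0.237) or 3 (0.106). RASGRF2 lost its call without replicate 1 (0.141), 2 (0.116) or 3 (0.0963), with DESeq2 (0.0572) and without the filter (0.0728). Of the 6 fits without 1 treated library, RASGRF2 was called in 2 and PPP1CA in 4. RASA4 and RASA4B are near-identical copies whose reads cannot be split with certainty, and neither was called without a block. With the block within each line, RASA4 was called for the inducer in NS1 (adjusted p = 0.0197) and in the interaction (0.0353), and RASA4B was not (0.0750 and 0.0788). As context, between the treated lines the RAS genes themselves had log2 fold changes of -0.44 (HRAS, adjusted p = 0.0335) and 0.49 (NRAS, adjusted p = 0.0284).

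**Figure D3:**
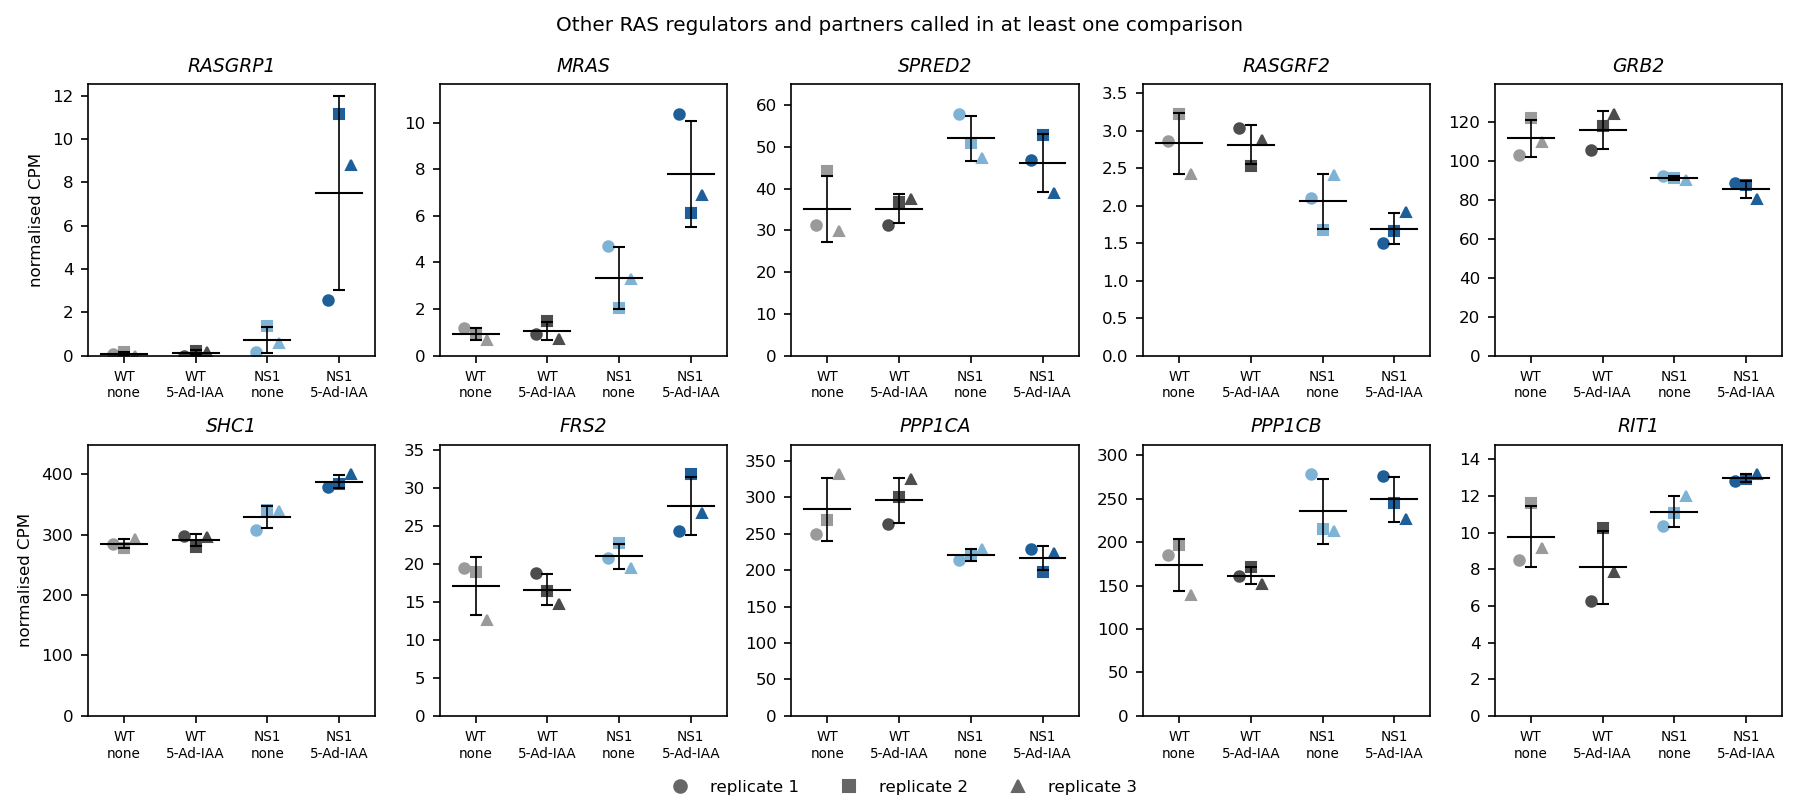
Normalised CPM in each library of the partners and relatives called in at least one comparison, one panel per gene with its own axis from 0, points marked by replicate number, a line for the group mean and bars of 1 SD. RASGRP1 is at most 0.223 in WT libraries and between 2.55 and 11.2 in treated NS1 libraries, and GRB2 is lower in treated NS1 than in treated WT.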

How the data were processed

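Poly(A) RNA libraries were made with a NEBNext Ultra II kit, per the labels' protocols. The deposited file holds raw counts by gene, as whole numbers without normalisation, with 1 column for each of the 12 libraries. Per the submitters' processing notes, STAR 2.7.3a and featureCounts 1.6.4 were used with hg38; the annotation release and the strand setting are not given in the sources used here. Of the 60603 identifiers, 60306 matched a symbol. Positions, exon lengths and overlaps came from GENCODE release 29. The members and all gene lists were chosen with earlier results of these data known.

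Counts were analysed in R 4.3.3 with edgeR 4.0.16: filterByExpr over the 4 groups, TMM scaling, and one quasi-likelihood fit to the 12 libraries, each group having its own mean. Calls are at a two-sided Benjamini-Hochberg adjusted p under 0.05 over the 17775 genes tested. The SE is the log2 fold change divided by the square root of F. The genes named are the 10 members, and of the 25 wider regulators those called, at most the 6 with the lowest adjusted p per comparison. HRAS and NRAS are given as context. The markers PECAM1, CDH5, VWF, EPCAM, KRT19 and CD14, as well as PPP1CC, RASA4, RASA4B and 3 more called regulators, were named after their values were seen. Alternatives were RLE factors, library totals, no filter, at least 10 counts in every library, DESeq2 1.42.0, replicate blocks, only the groups compared, and leaving out libraries; where this left 1 or 2 libraries in a group, the pooled spread was used. The edgeR steps were tested on simulated data.

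Libraries of one line with the same replicate number deviated together from their group means (correlation 0.713, 0.386 and 0.384 in NS1 and 0.752, 0.385 and 0.256 in WT). Fits with the replicate block are therefore given beside the inducer results. Different numbers were not correlated. Deviations cancel within a group, so where replicate 1 stands apart in both groups, replicates 2 and 3 can correlate without being paired. No pair of libraries looked like one library deposited again (lowest chi-square per degree of freedom 3.03). Replicate 1 stood apart in treated WT, untreated NS1 and treated NS1. There replicates 2 and 3 gave 4.20, 3.03 and 5.46, and pairs with replicate 1 gave 17.6 to 26.3. In untreated WT all pairs were far apart (18.2 to 30.7). The part of this in the fits that left out a replicate number was not tested. Library totals were 10593934 to 20266996 counts, without molecular identifiers. The exact interval of the SOS1 share and the floors cover counting error only, whereas the intervals of 2 SE also include the spread between libraries. A group was at the floor when each library held at most 3 counts.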

Additional observations from a re-analysis of the deposited data

Results flagged for a closer look

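The inducer effect was compared between the lines by the interaction with a block by replicate number within each line. A difference was called for 1 of the 10 members and for 3 of the 20 wider regulators tested. That fit called 14.0% of all genes, a share near those of the lists. For SOS2 the effect in NS1 cells exceeded that in WT cells by 0.518 on the log2 scale (edgeR, adjusted p = 0.0224), for MRAS by 1.15 (adjusted p = 0.0394) and for RIT1 by 0.516 (adjusted p = 0.0370). The RIT1 effect was not called within either line in the blocked fit (log2 fold change 0.2265 in NS1, adjusted p = 0.134, and -0.290 in WT). Without a block SOS2, MRAS and RIT1 did not pass the interaction, with adjusted p of 0.342, 0.405 and 0.457. RASA4 passed the same blocked test, but its reads cannot be told apart from those of RASA4B.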

How the results depend on the processing

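Of the 10 members, 0 were called for the inducer in NS1 cells; no low-count filter, DESeq2 and a fit of only the groups compared each called 1, the replicate block 2 and the block within each line 3. Between the untreated lines 1 was called, and 2 with the replicate block, which added LZTR1 (adjusted p = 0.00666); there the same numbers correlated at 0.0719 to 0.190, and the numbers are not known to pair the lines. That block moved the wider regulators called there from 2 to 7, of which 5 were higher in NS1. Between the treated lines 3 were called, and 2 with library totals. The interaction called 0, and 1 with the block within each line. The inducer in WT cells called 0 in each fit run. Leaving out libraries gave 0 to 1, 0 to 2 and 1 to 4 calls in the first 3 of these comparisons and 0 in the interaction. All genes called ranged there from 0 to 2021, 182 to 3466, 1632 to 6007 and 0 to 573; the block moved them from 1093 to 2421 or 4596, from 2222 to 3908, and from 4 to 634 or 2495, and the interaction gave 377 with DESeq2, 683 without the filter, 33 with at least 10 counts and 7 with RLE factors. The replicate block changed no other call of a member. The cause of these shifts was not tested. Signs changed only for members not called. For the inducer in WT, LZTR1 (log2 -0.000873) became 0.00392 with RLE factors, 0.00112 without the filter, 0.00435 with DESeq2 and 0.000383 with the block within each line, and RASA1 (0.01) became -0.00268 with library totals and -0.00736 with that block. Between the treated lines, RASAL2 became 0.00204, 0.0176, 0.00199 and 0.0109 with RLE factors, the stricter filter, DESeq2 and only these groups, and NF1 became -0.042 with library totals. Over fits that left out libraries, the inducer effect in NS1 ranged from -0.178 to 0.0942 (RASAL2) and -0.137 to 0.0639 (DAB2IP). That in WT ranged from -0.282 to 0.0121 (SOS1), -0.141 to 0.190 (SOS2), -0.392 to 0.116 (NF1), -0.169 to 0.134 (RASA1), -0.120 to 0.149 (RASA3), -0.260 to 0.00153 (RASAL2), -0.184 to 0.0118 (DAB2IP) and -0.0759 to 0.0847 (LZTR1). The untreated line difference ranged from -0.218 to 0.111 (RASA2), -0.231 to 0.0551 (RASAL2) and -0.00766 to 0.115 (DAB2IP). The treated one ranged from -0.0966 to 0.243 (NF1), -0.267 to 0.0393 (RASA2), -0.147 to 0.128 (RASAL2) and -0.0245 to 0.205 (DAB2IP). The interaction ranged from -0.378 to 0.0775 (RASA2), -0.0801 to 0.289 (RASAL2) and -0.108 to 0.161 (DAB2IP).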
